A study of Homo sapiens with 6 samples.

Results

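The genes described here encode the machinery that copies nuclear DNA: 56 genes chosen by name for licensing, helicase, polymerase, clamp, fork and chromatin assembly functions, read by 84 probes out of the 20046 named genes and 47323 probes on the array. Every probe that the platform annotation gives 1 of these symbols was taken, and all 56 genes had at least 1. RNA came from HepG2, an established human line from a liver tumour. The 3 control samples and the 3 samples labelled as PBLD overexpressed were each hybridised to 1 Illumina bead array. The sources used here do not give the means by which PBLD was raised, the vector, if any, in the controls, or whether each sample was its own culture. The p-values therefore cover the spread among 3 arrays of a group, part or all of which can be technical, in 1 cell line.

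Before a cell divides, the origin recognition complex, CDC6 and CDT1 load the MCM2-7 ring onto DNA in G1, which licenses each origin to be used once. In S phase the kinase CDC7 with its partner DBF4, together with cyclin-dependent kinases, turns that ring into the active helicase by adding CDC45 and the GINS complex. Polymerase alpha-primase then starts each strand, polymerases epsilon and delta extend it behind the sliding clamp PCNA, and nucleases and a ligase join the lagging strand pieces. Many of these genes are transcribed from late G1 onwards under E2F factors, so their RNA is known as a mark of cycling cells.

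The sequences before the start sites of 6 of these genes are shown because E2F-type letters recur in the set. Each line gives the 250 bases before the annotated start of the transcript, 5′ to 3′ on the strand of the gene, from RefSeq (GRCh38.p14), and capitals mark the strings searched for, which were TTCCCGC or TTGGCGC or TTCGCGC or TTGCCGC on either strand. The promoters shown for MCM6, MCM3, CDT1 and PCNA hold such strings and their genes rose in the test below. That of FEN1 holds none although FEN1 rose, and that of PRIM1 holds one although PRIM1 did not pass. PCNA has another annotated start, not shown, whose window holds none.
MCM6 (chr2:135876444-135876693, minus strand): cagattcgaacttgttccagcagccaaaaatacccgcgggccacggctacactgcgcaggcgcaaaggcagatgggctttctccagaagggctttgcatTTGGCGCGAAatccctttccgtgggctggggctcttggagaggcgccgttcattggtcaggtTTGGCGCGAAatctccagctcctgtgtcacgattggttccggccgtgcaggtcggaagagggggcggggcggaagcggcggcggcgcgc
MCM3 (chr6:52284743-52284992, minus strand): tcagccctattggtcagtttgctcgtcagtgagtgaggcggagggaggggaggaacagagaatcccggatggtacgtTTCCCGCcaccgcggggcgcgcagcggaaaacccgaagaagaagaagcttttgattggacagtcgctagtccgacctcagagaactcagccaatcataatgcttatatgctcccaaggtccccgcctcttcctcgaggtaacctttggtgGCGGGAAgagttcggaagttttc
CDT1 (chr16:88803539-88803788, plus strand): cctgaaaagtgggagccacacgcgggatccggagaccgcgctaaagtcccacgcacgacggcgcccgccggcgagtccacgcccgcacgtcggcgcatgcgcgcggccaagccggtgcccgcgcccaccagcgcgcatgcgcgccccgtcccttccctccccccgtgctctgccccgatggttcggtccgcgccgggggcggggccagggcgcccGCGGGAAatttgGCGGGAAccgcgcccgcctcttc
PCNA (chr20:5126623-5126872, minus strand): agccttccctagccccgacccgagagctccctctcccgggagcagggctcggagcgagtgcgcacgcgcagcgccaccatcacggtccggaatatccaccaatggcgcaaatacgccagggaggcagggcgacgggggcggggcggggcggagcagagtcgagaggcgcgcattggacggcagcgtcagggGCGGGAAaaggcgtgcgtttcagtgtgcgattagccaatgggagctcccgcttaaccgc
FEN1 (chr11:61792661-61792910, plus strand): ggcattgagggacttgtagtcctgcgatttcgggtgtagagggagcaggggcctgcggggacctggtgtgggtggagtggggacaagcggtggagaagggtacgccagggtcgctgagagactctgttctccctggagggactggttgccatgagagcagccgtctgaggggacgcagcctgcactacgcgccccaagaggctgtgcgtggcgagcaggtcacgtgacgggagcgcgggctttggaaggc
PRIM1 (chr12:56752324-56752573, minus strand): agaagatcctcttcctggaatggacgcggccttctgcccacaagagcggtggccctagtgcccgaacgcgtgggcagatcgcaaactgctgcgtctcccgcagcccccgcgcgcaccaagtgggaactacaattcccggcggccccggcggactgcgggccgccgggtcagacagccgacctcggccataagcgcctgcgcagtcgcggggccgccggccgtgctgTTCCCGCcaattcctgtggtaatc

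In MCM6 the forward and reverse strings overlap, which makes the run of 10 capitals at each of 2 places. In windows that also took in the first 50 bases of the transcript, 37 of 63 promoters of these genes (58.73%) held at least 1 of the strings, against 4553 of 35116 promoters in the whole RefSeq table (12.97%). These sets were not matched for base composition. The 63 promoters belong to the 49 genes with an entry, several of which have more than 1 annotated start, and overlapping strings were counted separately. The box CCAAT stood in 55.56% of them and in 34.61% of all promoters, and the string TTTGAA, a form of the CHR element of late cell cycle genes, in 4.76% and 15.16%, also on either strand. Counted by gene, a window with an E2F-type string was found for 21 of the 27 genes that rose and have an entry, and for 14 of the 22 that did not pass. A match describes the letters in these windows and is not a site of binding, and whether the 2 shares differ was not tested.

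**Figure D1:**
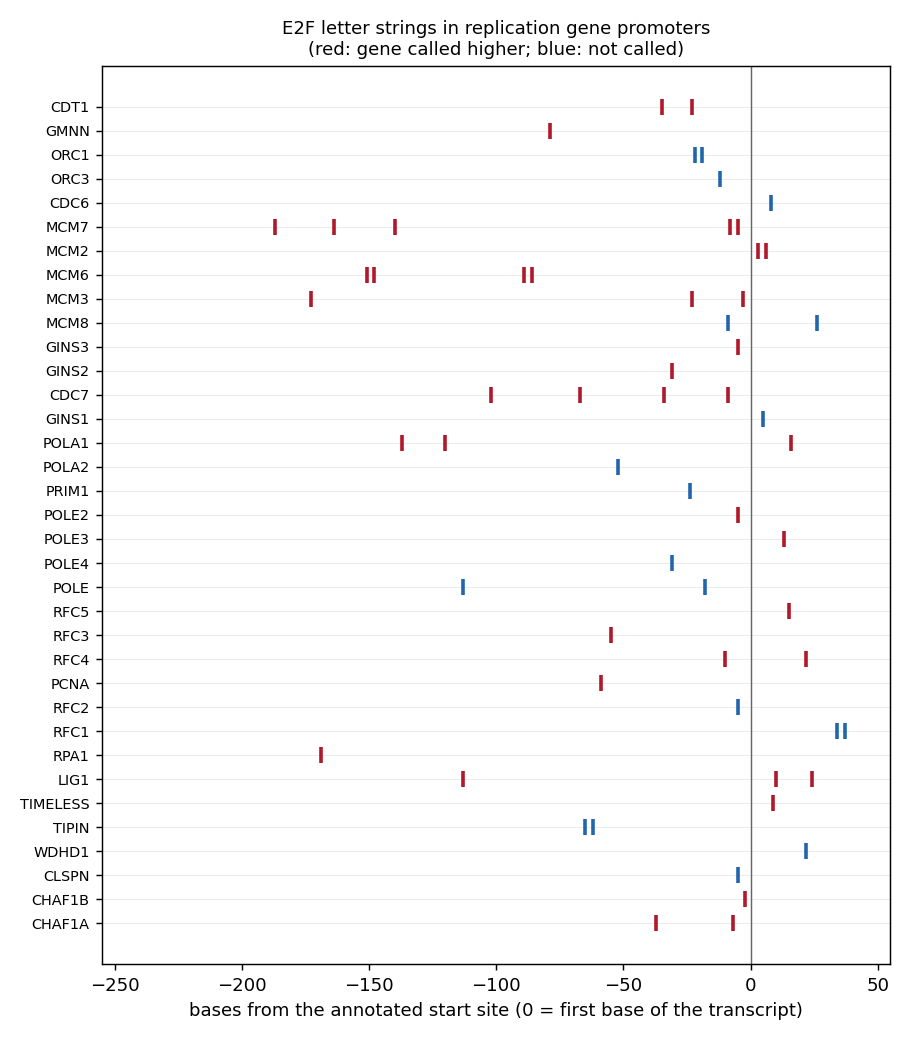
Positions of the E2F-type strings in the promoters of the 35 replication genes that hold one, 1 row per gene, with the distance in bases from the annotated start site on the x axis and all annotated starts of a gene on 1 row. Red ticks are genes called higher in PBLD overexpressed cells and blue ticks genes that did not pass, and the window searched ran from 250 bases before the start to 50 after it, so most of it is upstream.

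PBLD itself, read by the probe ILMN_1789653, stood at 8.09 ± 0.09 in controls and 12.73 ± 0.11 in PBLD arrays on the deposited log2 scale (SD, n = 3 in each group). Only 1 of the 3 control arrays was above background there. A second PBLD probe, ILMN_2304404, was above background on no control array and on all 3 PBLD arrays and was at least 18.0-fold higher, the direction the labels give, while ILMN_1699684 and ILMN_1760748 were at background on all 6 arrays. Every array had a median of 8. Of 7 HepG2 marker genes, all 7 were above background on all 6 arrays. In contrast, 4 of 6 fibroblast, 2 of 4 leukocyte and 3 of 4 endothelial marker genes were above background on none, among them COL1A2, PTPRC and PECAM1. Of the rest, PDGFRB, CD14 and LYZ were above background on all 6 arrays. VWF was above it on 3 control arrays and 1 PBLD array, and COL1A1 on 1 PBLD array. Of the HepG2 markers, 4 fell and 0 rose in limma (APOA1, APOB, TTR and SERPINA1), and the log2 of their summed signal went from 17.79 to 17.97 in control arrays to 17.64 to 17.78 in PBLD arrays. The leukocyte sum went from 14.42 to 14.66 down to 14.18 to 14.39 and is carried by LYZ, which fell by 0.31. The fibroblast sum was 10.71 to 10.81 against 10.69 to 10.73 and the endothelial sum at most 10.05 against 9.94 to 10.01, with 0 calls in either list. The part of these shifts in the changes below was not tested.

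Of the 56 replication genes, 28 rose in PBLD overexpressed cells and 0 fell, at a Benjamini-Hochberg adjusted p under 0.05 in limma, adjusted over all probes. Among all genes tested, 5.81% were called higher and 4.2% lower, and among the 10880 genes above background on at least 3 arrays, 10.6% were called higher and 7.72% lower. The median log2 change was 0.26 over the 56 genes and 0.01 over all genes. The rises were small, 1.18-fold to 1.63-fold with a median of 1.34-fold. At an unadjusted p under 0.05, 39 were higher and 0 lower, where 12.6% of all genes were higher and 9.09% lower, and 21.8% and 15.4% of those above background on at least 3 arrays. Normexp background correction with quantile normalization reduced the count to 11 of 56 (19.6%), while calls over all genes fell to 1.22% higher, and 2.03% lower, with 0 of the 56 lower. After cyclic loess, where 5.87% of all genes were higher and 7.36% lower, 29 of the 56 rose and 0 fell. Leaving out an array gave 24 to 29 rises, against 3.7% to 6.45% of all genes higher. Without control replicate 3 the count was 24 against 3.7% of all genes higher, and without PBLD replicate 2 it was 25 against 3.87%. A larger share of cells in S phase and more RNA per cell cannot be told apart in bulk samples.

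Of the 28 that did not pass, 20 had a positive and 8 a negative log2 change. The 3 PBLD arrays all lay above the 3 control arrays in 34 of the 56 genes, the 28 that rose and 6 that did not pass, against 13.6% of all genes and 20.3% of those above background on at least 3 arrays. Those 6 were ORC1, GINS4, RFC2, DNA2, TIPIN and WDHD1, at log2 changes of 0.17 to 0.21. The genes that failed to stay above background on all 6 arrays were also 6 in number, namely CDC6, GINS1, DBF4, PRIM2, POLD4 and CLSPN, and none of them was called. DBF4 and CLSPN were above background on no array, so the array says nothing of their direction.

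**Figure D2:**
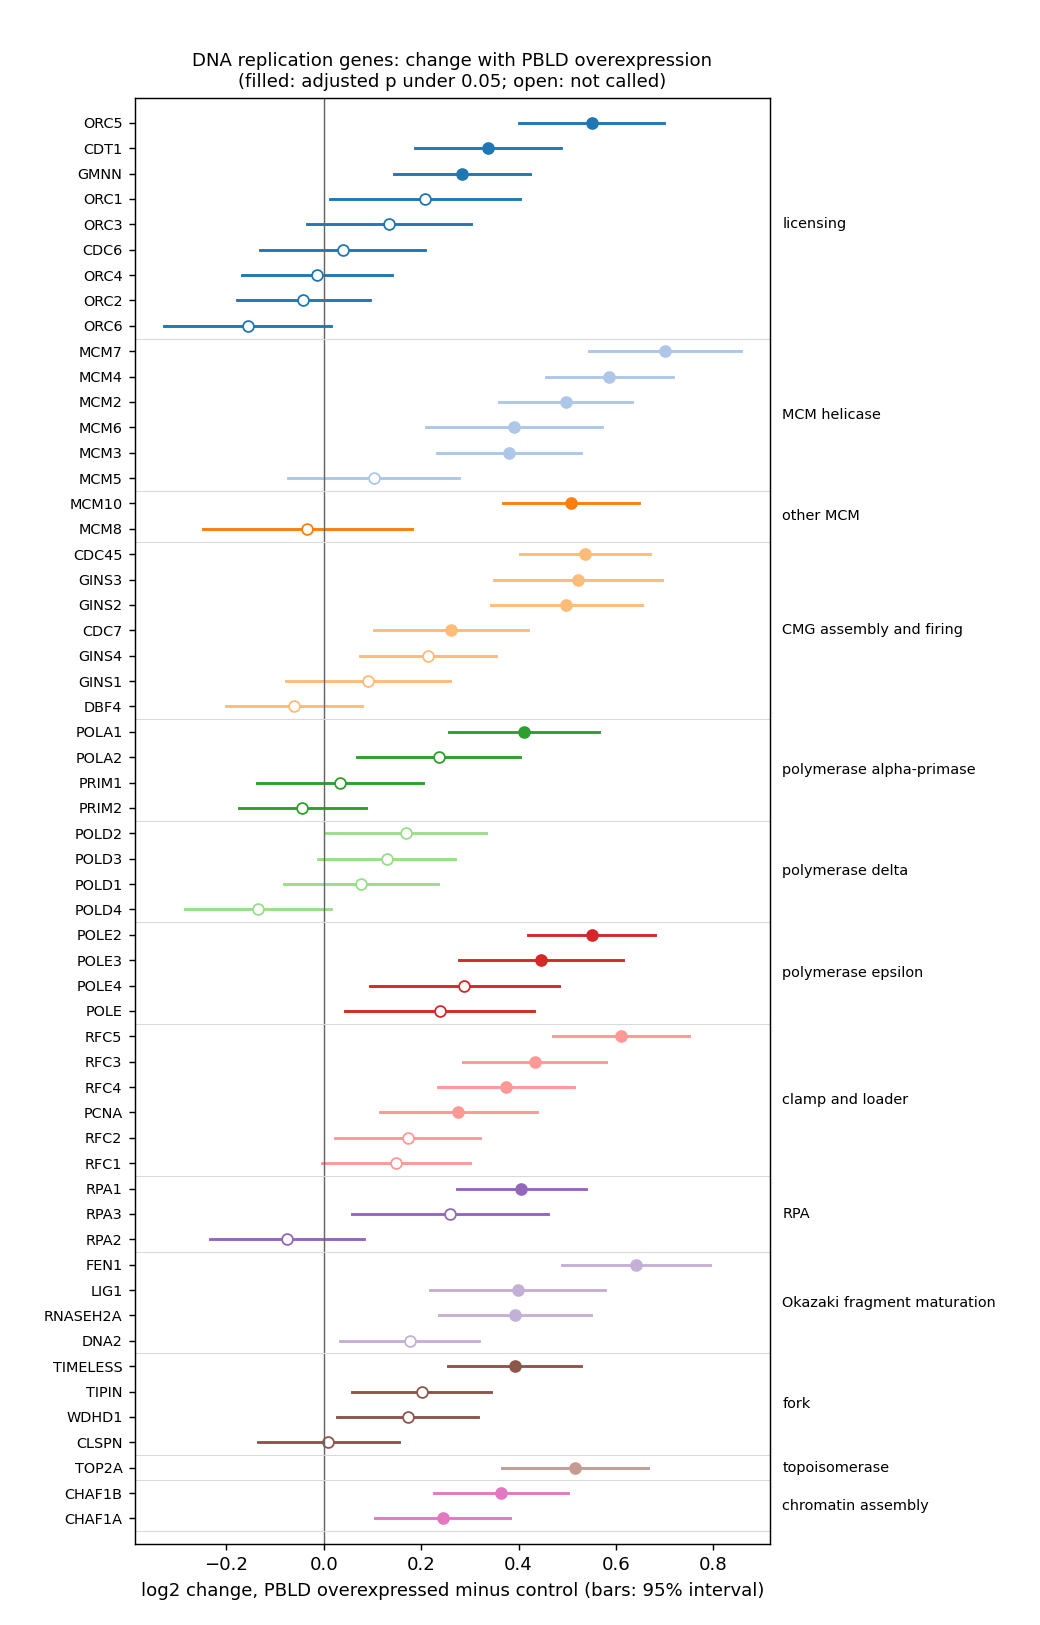
Log2 change of each of the 56 replication genes, PBLD overexpressed minus control, grouped by role, with 95% intervals from limma (3 arrays per group). Filled points are the 28 genes called higher and open points those that did not pass, and the 6 largest rises by the brightest probe of each gene are MCM7, FEN1, RFC5, MCM4, ORC5 and POLE2.

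**Figure D3:**
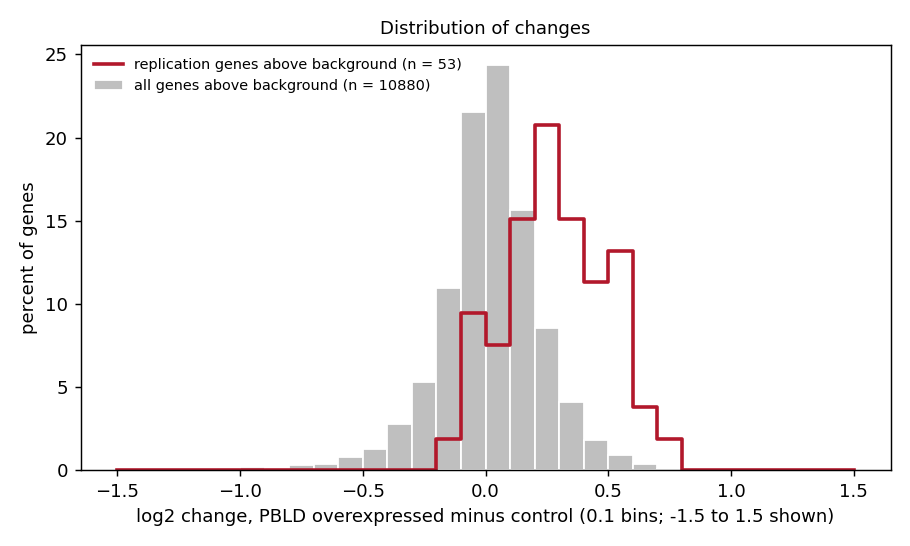
Percent of genes in bins of 0.1 of the log2 change, for the 10880 genes above background on at least 3 arrays (grey bars) and the 53 replication genes among them (red line). The grey bars peak just above 0 and the red line lies to their right, and bins beyond -1.5 and 1.5 are not drawn.

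Origin licensing was split. Among the 9 licensing genes, 3 rose and 6 did not pass. ORC5, a subunit of the origin recognition complex, stood at 9.92, 9.86 and 9.79 on the control arrays and at 10.46, 10.48 and 10.27 on the PBLD arrays. Its groups lay well apart, 0.55 higher on the log2 scale (SE 0.07, adjusted p = 0.000127 in limma), read by 1 probe, since the other two ORC5 probes were at or near background, and the mean of all 3 gave 0.24. CDT1, the loader of the MCM ring, rose by 0.34, and GMNN, which encodes geminin, the inhibitor of CDT1, rose by 0.28 (adjusted p = 0.00712 and 0.014 in limma). The GMNN call was lost in 6 of 16 alternatives, among them the removal of control replicate 1, control replicate 3 or PBLD replicate 2. ORC1, the largest ORC subunit, had a change of 0.21 (adjusted p = 0.287), with the second PBLD array at 8.82 and the other two at 8.40 and 8.43, and 0.07 without that array. ORC2 (-0.04), ORC3 (0.13) and ORC4 (-0.01), the other core subunits, and CDC6 (0.04), the ATPase that joins ORC at the origin, did not pass.

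ORC6, the smallest ORC subunit, was read differently by its 2 probes. The brightest, ILMN_2215061, was near the top of the scale at 15.66, 15.71 and 15.69 on control arrays and 15.44, 15.75 and 15.40 on PBLD arrays, where array maxima ran from 15.73 to 16.04. Its PBLD arrays lay on both sides of the controls, and its change of -0.16 did not pass (adjusted p = 0.42). The second, ILMN_1731070, stood at 8.95, 9.12 and 8.89 against 9.41, 9.46 and 9.39, which is a rise of 0.43 (SE 0.07, limma adjusted p = 0.000877) with no overlap. ORC6 counts among the genes that did not pass because the brightest probe stands for a gene, and without PBLD replicate 2 that bright probe was called lower (-0.26, adjusted p = 0.0313). The mean of both probes was 0.14 and did not pass.

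The helicase ring rose in 5 of its 6 subunits. By its brightest probe MCM7 had the largest change of the 56 genes, from 12.48, 12.60 and 12.55 on control arrays to 13.25, 13.37 and 13.10 on PBLD arrays. That is 1.63-fold higher (0.70 on the log2 scale, SE 0.07, adjusted p = 1.69e-05 in limma), and a dimmer MCM7 probe gave 0.45. With all 3 MCM7 probes averaged, the one at background included, the change was 0.40, below the 0.60 of FEN1 treated the same way. MCM4 went from 11.23, 11.20 and 11.12 to 11.75, 11.79 and 11.75, a log2 change of 0.59. MCM2 went from 10.25, 10.29 and 10.13 to 10.72, 10.75 and 10.69, 1.41-fold higher. In both, the PBLD arrays were tightly grouped (SD 0.03) and all lay above the highest control. MCM3 rose by 0.38 and MCM6 by 0.39 (adjusted p = 0.0026 and 0.0094 in limma). MCM5 was the exception, at 10.05, 10.15 and 9.78 on control arrays against 10.08, 10.15 and 10.05 on PBLD arrays. Its groups overlapped, and its change of 0.10 had a 95% interval of -0.07 to 0.28. That interval overlaps those of MCM3 (0.23 to 0.53) and MCM6 (0.21 to 0.57). It lies below those of MCM2 (0.36 to 0.63), MCM4 (0.46 to 0.72) and MCM7 (0.55 to 0.86). Whether MCM5 changed less than the other subunits was not tested.

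Of the MCM proteins outside the ring, MCM10, which helps the helicase start, went from 9.20, 9.24 and 9.16 to 9.61, 9.77 and 9.74, a rise of 0.51 (SE 0.07, adjusted p = 0.000137 in limma). A second MCM10 probe rose by 0.28. MCM8, a helicase subunit known for DNA repair, was again split between probes. Its brightest probe, with overlapping groups, changed by -0.03 (adjusted p = 0.956), while a dimmer one, at 9.19, 9.35 and 9.32 against 9.59, 9.65 and 9.73, rose by 0.37 (adjusted p = 0.00246), and the mean of its 3 probes was 0.08.

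Genes for helicase activation rose in 4 of 7. CDC45, a core part of the active helicase, went from 10.30, 10.31 and 10.23 to 10.79, 10.89 and 10.78, 1.45-fold higher (limma adjusted p = 5.35e-05). GINS2 and GINS3, subunits of the GINS complex, rose together. GINS2 went from 11.14, 11.14 and 11.01 to 11.50, 11.74 and 11.54 (log2 change 0.50). GINS3 went from 9.42, 9.41 and 9.32 to 9.96, 10.06 and 9.71 (log2 change 0.52). In both genes the second PBLD array was the highest and no PBLD array reached down to a control. GINS4 missed the threshold at 0.21 (adjusted p = 0.0706) and GINS1, near background, changed by 0.09. CDC7, the kinase that fires origins, rose by 0.26 at an adjusted p of 0.0488, and lost that call in 9 of 16 alternative settings, among them the removal of any 1 control array.

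The polymerases differed in their counts. Of the 4 polymerase epsilon genes, which make the leading strand enzyme, 2 rose. POLE2, its second subunit, went from 9.43, 9.54 and 9.47 to 10.06, 10.02 and 10.01, 1.46-fold higher (limma adjusted p = 3.60e-05). POLE3, a histone-fold subunit, went from 12.05, 11.85 and 11.77 to 12.38, 12.42 and 12.22 (log2 change 0.45). Both moved beyond the spread of their arrays, whereas the catalytic subunit POLE (0.24, adjusted p = 0.188) and the other histone-fold subunit POLE4 (0.29, adjusted p = 0.0849) did not pass and had overlapping groups. Of the 4 polymerase alpha-primase genes only POLA1, the catalytic polymerase subunit, rose, from 9.40, 9.24 and 9.15 to 9.64, 9.75 and 9.63 (log2 change 0.41, adjusted p = 0.0019), or 0.23 with its probe at background averaged in. POLA2, its accessory subunit, had 0.24 (adjusted p = 0.106), and the primase genes PRIM1 and PRIM2 had 0.03 and -0.04.

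For polymerase delta, the lagging strand enzyme, limma called 0 of 4 genes, and 1 (POLD2) was higher and 0 lower at an unadjusted p under 0.05, a share near the 21.8% of genes above background that were higher at that threshold. The catalytic subunit POLD1 changed by 0.08 (95% interval -0.08 to 0.23), POLD2 by 0.17 (0.005 to 0.33), POLD3 by 0.13 (-0.01 to 0.27) and POLD4 by -0.14 (-0.29 to 0.02), and all had overlapping groups. The upper bounds for POLD2 and POLD3 exceed the smallest rise that passed (0.244, CHAF1A). The bound for POLD1 lies just below it (0.234), and that for POLD4 lies below it. POLD4 was above background on 2 control arrays and 0 PBLD arrays, so its interval does not bound the change of its RNA. A difference between polymerases delta and epsilon was not tested.

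Of the 6 clamp and loader genes, 4 rose: PCNA and 3 subunits of RFC, the complex that opens the clamp. RFC5 went from 9.95, 9.99 and 9.91 to 10.55, 10.66 and 10.47, 1.53-fold higher (0.61 on the log2 scale, SE 0.07, adjusted p = 2.40e-05 in limma). RFC3 went from 9.52, 9.42 and 9.41 to 9.84, 10.01 and 9.81 (log2 change 0.43), and RFC4 rose by 0.37. For RFC5 only 1 of 2 probes was above background on all 6 arrays, and the mean of both gave 0.26, while both RFC4 probes and 2 of 3 RFC3 probes rose. RFC1, the large subunit (0.15), and RFC2 (0.17) did not pass on either of their probes.

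PCNA, the clamp itself and a common marker of proliferating cells, had one of the less stable calls. Its brightest probe stood at 12.32, 12.60 and 12.54 on control arrays and 12.75, 12.84 and 12.70 on PBLD arrays, so the highest control lay just below the lowest PBLD array. It was 0.28 higher on the log2 scale (SE 0.08, adjusted p = 0.0393 in limma). Another PCNA probe above background on all arrays, ILMN_1706958, changed by -0.07 (adjusted p = 0.839) with overlapping groups. The PCNA call was lost in 10 of 16 alternatives, among them quantile normalization, cyclic loess, normexp and the mean over its 3 probes (0.10, adjusted p = 0.523).

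RPA coats the single-stranded DNA at the fork. Its largest subunit, RPA1, went from 10.80, 10.90 and 10.85 to 11.24, 11.31 and 11.22, and all 3 RPA1 probes rose, by 0.30 to 0.41. The smaller subunits RPA2 (-0.08) and RPA3 (0.26, adjusted p = 0.158) did not pass. Among the genes that finish Okazaki fragments, 3 of 4 rose. FEN1, the flap endonuclease, had the second largest change by its brightest probe, from 11.57, 11.59 and 11.42 to 12.20, 12.25 and 12.05, 1.56-fold higher (limma adjusted p = 3.64e-05), and a second FEN1 probe gave 0.56. LIG1, the ligase that seals the fragments, rose by 0.40 and RNASEH2A, the catalytic subunit of the enzyme that cuts RNA from DNA, by 0.39. The helicase and nuclease DNA2 had 0.18 (adjusted p = 0.183 in limma). RNASEH2B and RNASEH2C, subunits of the same enzyme as RNASEH2A but outside the set, had 0.21 and 0.09 and did not pass (limma adjusted p = 0.103 and 0.629).

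Of the 4 fork protection genes, TIMELESS rose by 0.39 (adjusted p = 0.00108), and its partner TIPIN (0.20, adjusted p = 0.105) and the polymerase tether WDHD1 (0.17, adjusted p = 0.207) did not pass. CLSPN, the checkpoint mediator claspin, was not above background. TOP2A, the topoisomerase that untangles replicated DNA and peaks later in the cycle, went from 12.64, 12.73 and 12.47 to 13.15, 13.11 and 13.14, 1.43-fold higher (limma adjusted p = 0.000216). The PBLD arrays of TOP2A were tightly grouped, all above the highest control. Both subunits of the histone chaperone CAF-1 that were chosen rose, CHAF1B by 0.36 and CHAF1A by 0.24 (adjusted p = 0.0021 and 0.0352 in limma). The CHAF1A call was lost in 9 of 16 alternatives, including the removal of any 1 array. RBBP4, a CAF-1 subunit outside the set, had 0.15 with overlapping groups and did not pass (limma adjusted p = 0.349).

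**Figure D4:**
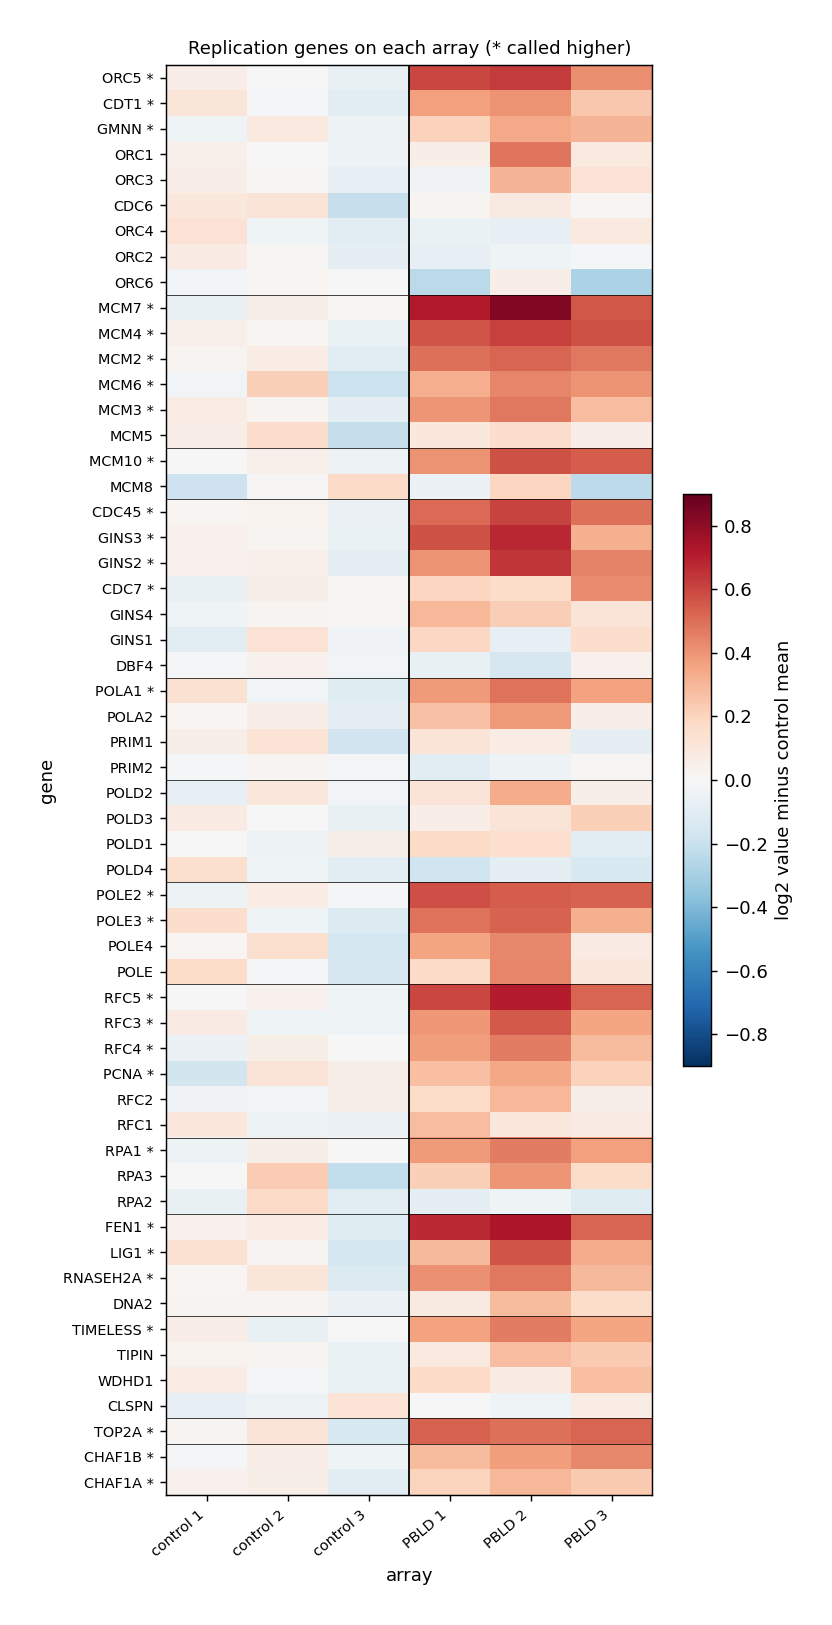
Log2 value of each of the 56 replication genes on each of the 6 arrays, minus the mean of the 3 control arrays, with genes as rows grouped by role, arrays as columns, and a star at genes called higher. Red cells are above the control mean and blue cells below, and the genes with a star are red on all 3 PBLD arrays.

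Across arrays, the 28 genes that rose lay at medians of 0.40, 0.51 and 0.39 above their control means on the 3 PBLD arrays, and at 0.03, 0.05 and -0.06 on the 3 control arrays. The choice of called genes fixes the direction of that contrast. PBLD replicate 2 was the highest array and control replicate 3 the lowest. Over all 56 genes the medians were 0.27, 0.38 and 0.24 on PBLD arrays and 0.03, 0.03 and -0.06 on control arrays, and 11 of the 56 were above their control mean on control replicate 3. The 75th percentile of all probes was highest on PBLD replicate 2 (8.60) and lowest on control replicate 3 (8.50), so the same arrays stand high and low over the array as a whole. The part of that array difference in the changes was not tested, and with each array scaled to its 75th percentile 32 of the 56 genes rose and 0 fell, against 7.39% of all genes higher and 5.06% lower.

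Of the 21 genes with several probes, 16 had at least 2 probes above background on all 6 arrays. All of those probes rose in 7 genes (MCM3, MCM4, MCM7, MCM10, RFC4, RPA1 and FEN1), some rose in 4 (ORC6, MCM8, PCNA and RFC3) and none rose in 5 (PRIM1, POLD2, RFC1, RFC2 and DNA2). Of all 84 probes 39 rose and 0 fell, against 3.5% and 2.57% of all probes on the array, and the 16 probes not above background on all 6 arrays held 0 of these calls. With 1 called probe taken as enough, 30 genes rose, ORC6 and MCM8 being the 2 added. The share of all genes with at least 1 called probe was not counted, so that 30 has no share to stand beside.

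**Figure D5:**
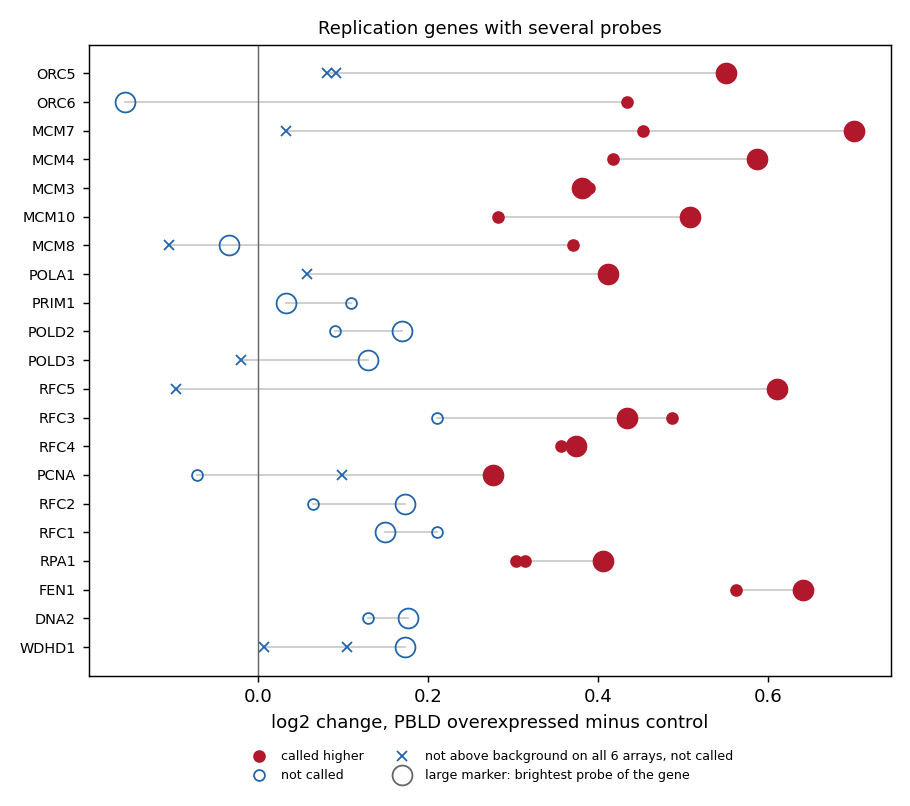
Log2 change, PBLD overexpressed minus control, of every probe of the 21 replication genes with several probes, 1 row per gene. Red points are probes called higher, open blue points probes that did not pass, crosses probes not above background on all 6 arrays, and large markers the brightest probe of the gene, which for ORC6 and MCM8 lies to the left of a dimmer probe that rose.

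The calls that ended with normexp background correction were those of GINS2, POLA1, POLE3, RPA1 and TOP2A among the genes with array values above, and of all 12 genes with rises below 0.4. The log2 changes of these 17 after normexp ran from 0.24 to 0.49, with GINS2 at 0.47, POLA1 at 0.49 and TOP2A at 0.48. The changes of CDC7 (0.42), CHAF1A (0.44), POLA1, LIG1 (0.48), RNASEH2A (0.45) and CHAF1B (0.42) were larger than in the deposited values. Those of TIMELESS and CDT1 were slightly larger, and those of the remaining genes of the 17 were smaller. The 11 that kept their call in all 16 alternatives were ORC5, MCM2, MCM4, MCM7, MCM10, CDC45, GINS3, POLE2, RFC3, RFC5 and FEN1. Their adjusted p after normexp ran from 0.0114 for RFC5 to 0.0476 for RFC3, and the log2 changes there were 0.66 for RFC5, 0.67 for MCM7 and 0.60 for FEN1.

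Other genes of DNA replication, 44 of 46 listed outside the set, gave 17 that rose and 0 that fell in limma (38.6%, against 5.81% of all genes higher), with 22 higher and 0 lower at an unadjusted p under 0.05, where 12.6% of all genes were higher. Their median log2 change was 0.16. CCNA2, the S phase cyclin A2, had the largest change (0.65), with its kinase partner CDK2 at 0.38 and CCNE1, which encodes cyclin E1, at 0.31. TOPBP1 (0.39), TICRR (0.30) and DONSON (0.30), which help assemble the active helicase, rose, as did LRWD1 (0.31), an ORC-associated protein. The alternative clamp loader subunits DSCC1 (0.38) and CHTF18 (0.28) and the histone chaperones NASP (0.49), ASF1A (0.38), ASF1B (0.37), SSRP1 (0.26) and SUPT16H (0.28) also rose. The remaining rises were those of RFWD3, a ubiquitin ligase that acts on RPA (0.54), TOP3A, a topoisomerase (0.45), and EXO1, an exonuclease (0.35). Of the 27 that did not pass, 21 had a positive and 6 a negative log2 change, from -0.10 to 0.29. Among these, PCLAF (-0.10), RBBP7 (-0.05), TOP2B (0.06), RECQL4 (0.08) and TOP1 (0.29) were above background on all 6 arrays. CCNE2, MCM9 and DBF4B were above background on no array. The count of rises was 11 without control replicate 3 (25%, against 3.7% of all genes) and 4 after normexp (9.09%, against 1.22% of all genes).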

How the data were processed

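RNA of 3 control and 3 PBLD overexpressed HepG2 samples was measured on Illumina bead arrays. The authors deposited a value table in log2 units, in which every array has a median of 8. BeadStudio is named without version or role, per the submitters' processing notes, and the sources used here do not give the background treatment, the scaling method or the log step. A second table, of non-normalized signals, was set aside because its 12 columns of sample values (6 of signal, 6 of detection) carry names that match no label.

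A two-sided limma fit (version 3.58.1, R 4.3.3, functions lmFit and eBayes) of PBLD overexpressed minus control was run on the deposited values unchanged, over all 47323 probes with Benjamini-Hochberg adjustment at 0.05. A gene was its brightest probe over the 6 arrays. Symbols came from the platform annotation (30113 probes with 1 symbol, 8 with several, 17202 with none), and those of all 56 genes matched RefSeq. Background was set on each array at the 95th percentile of 590 probes of receptor and hair keratin-associated genes not used by liver cells (8.06 to 8.09). Folds are on the deposited scale, where probes at background read near 8, so a dim probe can show a smaller fold than its RNA has. Precision is limited by having 3 arrays in each group.

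The genes, their roles and lists were chosen with earlier results of these data known, so no test was made over a list. Values on every array are given for rises of at least 0.4 with groups that do not overlap, and other genes were named for probe disagreement or by their list. The fit was tested on simulated data. Alternatives were quantile, 75th percentile, cyclic loess and normexp (offset 50) normalization, an intensity trend with robust eBayes, array weights, the replicate number as a block, removal of each array in turn, a filter on probes dim on more than 3 arrays, a threshold of 0.01 and averaged probes. Figures used matplotlib 3.10.9.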

Additional observations from a re-analysis of the deposited data

How the results depend on the processing

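The count of rises among the 56 genes was 24 to 32 in 15 of the 16 alternatives, where 3.18% to 11.4% of all genes tested were higher. It was 11 after normexp with quantile normalization, against 1.22% of all genes. There the median log2 change moved from 0.26 to 0.34 and the cause was not tested. Leaving out 1 array gave 24 to 29 rises, against 3.7% to 6.45% of all genes higher. The median was 0.22 to 0.31, and 0 to 1 genes were lower, the 1 being ORC6, against 2.59% to 4.93% of all genes. The other replication genes, 17 higher in the deposited values, gave 11 to 16 without 1 array, where 3.7% to 6.45% of all genes were higher. They gave 10 at a threshold of 0.01 (3.18% of all genes) and 4 after normexp (1.22% of all genes), and 0 were lower in any alternative. Of the 28 rises, 11 kept their call in all 16 alternatives, 13 lost it with normexp alone and 4 (PCNA, CDC7, CHAF1A and GMNN) in several, while 7 further genes, ORC6 as lower and the others as higher, gained one in at least 1. None of the 28 changed sign in any alternative. The deviations of same-numbered arrays from their group means had correlations of 0.04, 0.14 and 0.19 across probes. Between groups, those of differently numbered arrays ran from -0.19 to 0.07, the highest being control replicate 1 with PBLD replicate 2. Whether same-numbered samples were handled together was not tested, and the labels give only the number. With the replicate number as a block, 32 of the 56 rose, 0 fell and 19 of the other replication genes rose, while 7.89% of all genes were higher and 5.68% lower. Signal over background limits CDC6, GINS1, DBF4, PRIM2, POLD4 and CLSPN.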
